A study of Mus musculus with 4 samples.

Results

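Potassium channel genes were measured in single skeletal stromal cells of mice with immobilized hindlimbs and of control mice. The 41 genes described here are those whose symbol starts with Kcn and that had at least 20 unique molecular identifiers (UMIs, counted RNA molecules) summed over the first sequencing lane of both groups. They were taken from 99 such symbols among 32286 listed features. Measured counts therefore chose the members, and no support is drawn from that choice. Kcnd3 stood at the minimum with 20 UMIs, and Kcnn3 with 17 and Kcnk7 and Kcnip2 with 15 UMIs each stood just below it. Of the 58 symbols left out, 20 had no UMI at all. By channel class there were 16 voltage-gated pore genes, 5 calcium- or sodium-activated, 4 inward rectifier and 5 two-pore domain pore genes, 9 auxiliary subunits, and 2 others, the antisense RNA Kcnq1ot1 and the regulator Kcnrg.

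Potassium channels let potassium leave or enter a cell along its gradient and so set the membrane potential, which in turn governs calcium entry, volume and secretion. Voltage-gated channels open on depolarization, calcium- and sodium-activated channels open as those ions accumulate inside the cell, inward rectifiers hold the resting potential, and two-pore domain channels carry leak currents, some of them opened by stretch. In bone, BK currents through the product of Kcnma1 and mechanosensitive leak channels have been recorded from osteoblasts, whose matrix deposition follows mechanical load. Auxiliary subunits carry no current of their own but change the opening, closing or surface number of the pores they bind.

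The cells came from RANKL fate-mapping mice (genotype Tnfsf11 tTA/+; LC1; Rosa26-LSL-tdTomato, strain C57BL/6J), in which a transactivator at 1 allele of Tnfsf11, the RANKL gene, drives Cre from LC1 and thereby tdTomato. Both groups received doxycycline from E0 to birth, so cells active only before birth stay unlabelled, and every labelled cell is a RANKL-lineage cell and not a sample of all stroma. The immobilized group was 6 mice with hindlimb immobilization for 2 weeks from 8 weeks of age, and the control group was 4 mice, all taken at 10 weeks. Cells were released by enzyme from minced femurs and tibias, right and left, after the marrow was flushed out. Live tdTomato-positive cells negative for CD45.2 and Ter119 were sorted, pooled by group and run on 10x 3' v3.1 chemistry. The deposited libraries were 2 sequencing lanes of 1 pool per group that differed by less than the sampling noise, so each group counts as 1 sample. No test across animals could be made and no p-value is given. Intervals below are exact 95% intervals of the counting error alone, and say nothing of the spread between mice or cells.

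After filtering, 1394 immobilized and 1411 control cells remained, with medians of 5706 and 5576 UMIs, and 3 barcodes occurred in both groups. The lanes held 9960011 and 10084134 UMIs in the immobilized group and 10732720 and 10860328 in the control group. Cells were clustered without any Kcn gene, and clusters were named from marker lists. Lepr+ CAR stromal-like cells (Cxcl12-abundant reticular stroma, defined by Lepr, Cxcl12, Kitl and Ebf3) numbered 317 in the immobilized and 523 in the control pool. Osteo-primed stromal-like cells (Wif1, Limch1, Tnc, Mmp13) numbered 371 and 216, and osteoblast-like cells (Bglap, Col1a1, Ifitm5, Smpd3) 458 and 462. Small clusters carried erythroid, granulocyte or B lineage markers, 111 immobilized and 69 control cells together, against the sort gate. Sex of the cells was uneven between pools. By Xist and Y-linked genes, 25.6% of the sexed CAR-like cells were female in the immobilized pool and 43.1% in the control pool, with 56.6% and 65.5% in osteo-primed-like and 77.1% and 93.9% in osteoblast-like cells.

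Levels are given as counts per 1000000 UMIs of a cell class (CPM), the mean of both lanes. A 2-fold difference is the size called, among members that averaged 50 UMIs or more per lane in at least 1 of the compared sets. Only 18 of the 41 members reached that count in at least 1 of the 3 classes, in part through the class or group where they were high, so counts over them do not describe the whole family. Because 3' counting may capture genes unequally, levels of single genes were not ranked against each other. Shares of a channel class are shares of counted UMIs, set between cell classes.

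Several potassium channel genes were highest in the same 1 of the 3 compared classes in both pools. In CAR-like cells these were Kcnq3 and the auxiliary subunits Kcne4, Kcnip3 and Kcnab1. In osteo-primed-like cells they were Kcnk2, Kcnt2 and Kcnb2, and in osteoblast-like cells Kcnma1, Kcnk1 and Kcnk6. Kcnma1 also had 1086 and 474.5 UMIs in osteo-primed-like cells. Outside the 3 classes, the 57 pericyte- or smooth muscle-like cells of the control pool had 128 CPM of Kcnq3 and 134 CPM of Kcnab1. These rested on 34 and 35.5 UMIs, and the 8 such cells of the immobilized pool held 0 and 1.5. Summed over the 5 calcium- or sodium-activated genes, osteoblast-like cells reached 1270 CPM in the immobilized and 891 CPM in the control pool, and CAR-like cells 80.0 and 46.4 CPM. Kcnma1 alone gave 86.1% and 88.1% of that osteoblast-like sum. The class made up 71.3% and 66.1% of the UMIs of all members, Kcnq1ot1 and Kcnrg included, in osteoblast-like cells. In osteo-primed-like cells it made up 43.0% and 35.5%. Auxiliary subunits made up 43.9% and 45.1% in CAR-like cells, against 3.91% and 3.57% in osteoblast-like cells. Their share was 13.0% and 45.9% in pericyte- or smooth muscle-like cells. Each of the 9 auxiliary subunits was placed in the named class with its largest share of UMIs, as the mean of both pools. For 5 this was CAR-like, for 3 osteoblast-like and for 1 osteo-primed-like cells. The share need not be a majority, as for Kcnip4 with 36.45% in CAR-like cells. Voltage-gated genes took 30.6% and 23.1% of the member UMIs in CAR-like cells and 3.10% and 2.75% in osteoblast-like cells. A cell held a UMI of 2.37 and 1.65 members on average in CAR-like, 3.13 and 3.11 in osteo-primed-like and 3.65 and 3.74 in osteoblast-like cells, at median depths of 4402 and 3852, 5588 and 5871, and 8266 and 9754 UMIs.

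**Figure D1:**
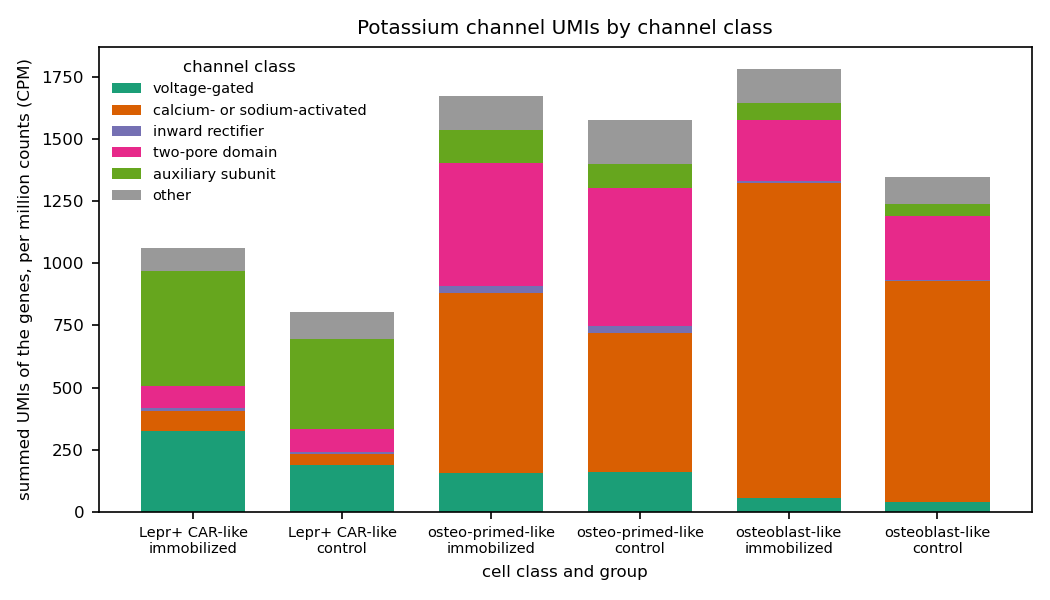
Summed CPM of the members of each channel class (stacked colours) in the 3 compared cell classes of both pools. Bars start at 0; the calcium- or sodium-activated part of the osteoblast-like bars is 1270 CPM in the immobilized and 891 CPM in the control pool, 86.1% and 88.1% of it Kcnma1.

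**Figure D2:**
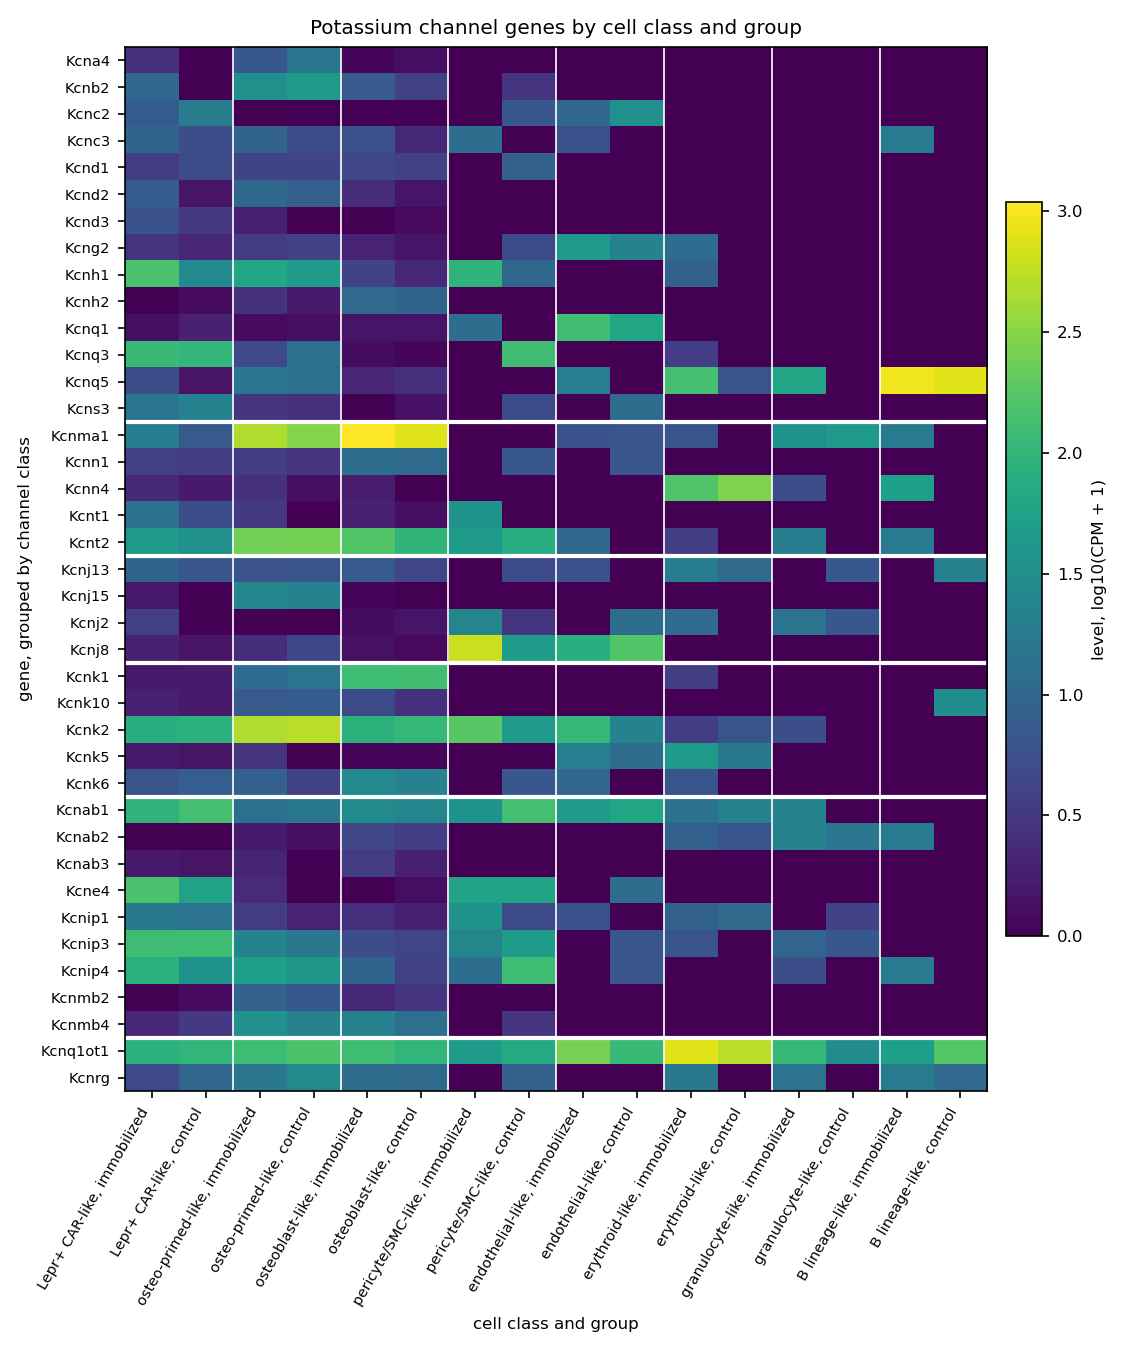
Level of 39 members (rows, ordered by channel class with white lines between classes) as log10(CPM + 1) in 8 cell classes of both pools. The small classes hold under 60 cells per pool, so a single UMI there gives a visible colour.

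Osteo-primed-like cells were set against CAR-like cells in each pool. Of 11 members compared in both pools, 4 were past 2-fold higher in both (Kcnb2, Kcnk2, Kcnma1, Kcnt2), and 4 were past 2-fold lower in both (Kcnab1, Kcne4, Kcnip3, Kcnq3). Over all 6804 genes compared the same way, 6.17% were past 2-fold higher and 9.24% lower. Osteoblast-like over CAR-like cells, 6 of 14 members were higher in both pools and 6 lower, where 8.8% of 7941 genes were higher and 23.8% lower. Osteoblast-like over osteo-primed-like cells, 4 of 12 members were higher in both pools (Kcnk1, Kcnk6 and Kcnma1 among them) and 4 lower (Kcnb2, Kcnh1, Kcnip4, Kcnk2), beside 4.75% and 13.3% of 7502 genes. These members had to be abundant in some class to be compared, so the larger shares among them are a description.

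Kcnk2, a leak channel that opens on membrane stretch, was the two-pore domain gene of osteo-primed-like cells. The lanes held 1088 and 1081 Kcnk2 UMIs in osteo-primed-like cells of the immobilized pool and 813 and 839 in those of the control pool. Its level was 471 CPM (443 to 500) and 531 CPM (496 to 569), against 81.2 and 86.3 CPM in CAR-like cells and 89.2 and 106 CPM in osteoblast-like cells. The log2 ratio of osteo-primed-like over CAR-like cells was 2.53 (2.27 to 2.81) in the immobilized and 2.62 (2.39 to 2.85) in the control pool. Within the class the gene was uneven. The cluster led by Hs3st5, Nlgn1 and Ndnf had 747 and 846 CPM, and the cluster led by Mmp9, Megf10 and Spp1 had 230 and 257 CPM. A Kcnk2 UMI was found in 71.2% and 72.5% of osteo-primed-like cells, and in 49.3% and 49.2% after each cell was thinned to 2000 UMIs. In haematopoietic-like cells it was 0.901% of 111 and 0.725% of 69 cells at median depths of 2209 and 2854 UMIs. These were 1 and 0.5 Kcnk2 UMIs, too few to set a level of free RNA. A gene listed on the same strand, 2900042K21Rik, overlaps Kcnk2, so reads may be split between them.

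Kcnk1 and Kcnk6, relatives of Kcnk2 that pass weak leak currents, followed the osteoblast-like cells. Kcnk1 had 506 and 485 UMIs in the lanes of the immobilized pool and 670 and 672 in those of the control pool, which is 124 CPM (114 to 136) and 130 CPM (121 to 141). CAR-like cells held 1 and 1.5 Kcnk1 UMIs on average over lanes, and osteo-primed-like cells reached 10.4 and 13.8 CPM. Osteoblast-like over osteo-primed-like cells, its log2 ratio was 3.55 (2.99 to 4.24) in the immobilized and 3.20 (2.62 to 3.93) in the control pool. Within the osteo-primed-like class the few Kcnk1 UMIs lay in the Mmp9 cluster, with 18.3 and 22.3 CPM, against 1.40 and 4.14 CPM in the Hs3st5 cluster. Kcnk6 had 27.8 and 21.3 CPM in osteoblast-like and 5.23 and 7.10 CPM in CAR-like cells.

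Kcnma1, the pore of the large-conductance BK channel, which opens on calcium and voltage together, was found in nearly every osteoblast-like cell. There it had 4311 and 4391 UMIs in the lanes of the immobilized pool and 3982 and 4099 in those of the control pool, and a UMI in 96.2% and 95.9% of cells. Its level was 1093 CPM (1061 to 1126) and 785 CPM (761 to 810) in osteoblast-like, and 471 and 305 CPM in osteo-primed-like cells. CAR-like cells had 18.1 and 6.21 CPM, on 29.5 and 14 UMIs. All haematopoietic-like cells together had 16.4 and 23.3 CPM, on 5.5 and 7.5 UMIs in 3.15% and 1.45% of cells, too few to set a level of free RNA. Osteoblast-like over osteo-primed-like cells, the log2 ratio was 1.21 (1.12 to 1.31) in the immobilized and 1.36 (1.23 to 1.50) in the control pool. Kcnmb4, a subunit that slows BK channels, was at 21.2 and 12.2 CPM in osteoblast-like and 33.6 and 21.6 CPM in osteo-primed-like cells, against 1.23 and 2.22 CPM in CAR-like cells. Kcnmb2, a subunit that inactivates them, had 8.03 and 5.79 CPM in osteo-primed-like cells and stayed under the count minimum. Of the small-conductance genes, Kcnn1 was at 11.3 and 10.2 CPM in osteoblast-like cells.

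Kcnt2, a sodium-activated channel, was past 2-fold higher in both other classes than in CAR-like cells. It stood at 244 and 252 CPM in osteo-primed-like, 164 and 95.3 CPM in osteoblast-like and 45.2 and 32.6 CPM in CAR-like cells. Its close relative Kcnt1 showed the other order, with 12.6 and 4.44 CPM in CAR-like cells and under 3 CPM in the other classes, on 20.5 and 10 UMIs.

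**Figure D3:**
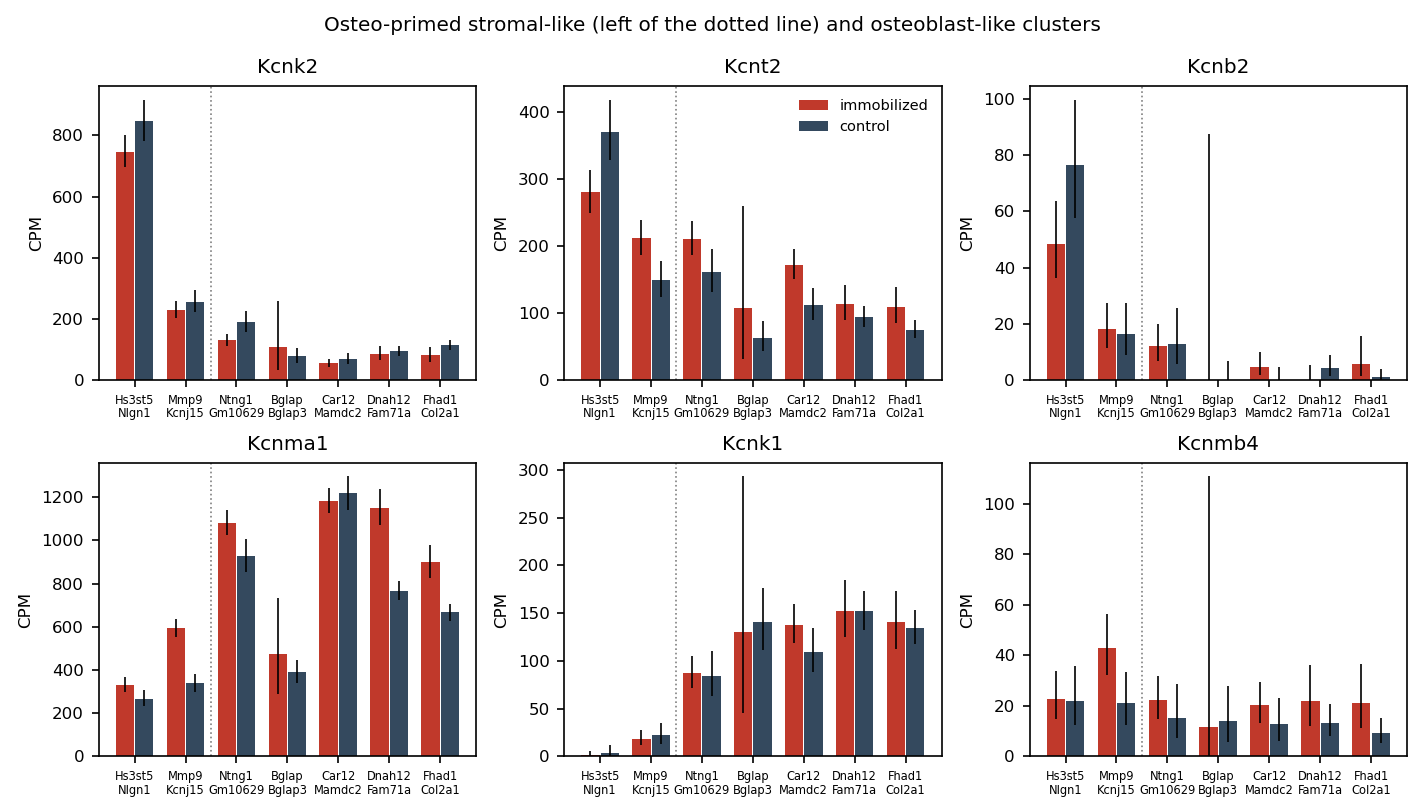
CPM of 6 members in each osteo-primed-like cluster (left of the dotted line) and osteoblast-like cluster, named by leading genes, with the immobilized pool in red and the control pool in dark blue. Error bars are exact Poisson 95% intervals; the Bglap cluster had 9 immobilized cells and wide bars. Kcnk2 is highest in the Hs3st5 cluster, at 747 and 846 CPM, and Kcnma1 lowest there, at 331 and 268 CPM.

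Voltage-gated genes divided the classes as well. Kcnq3, a pore of the M-current that damps excitability, had 182 and 184 UMIs in CAR-like cells in the lanes of the immobilized pool, and 218 and 243 in those of the control pool. Its level was 113 CPM (96.8 to 130) and 102 CPM (89.5 to 116), against 3.69 and 12.5 CPM in osteo-primed-like and 0.251 and 0.0971 CPM in osteoblast-like cells. The log2 ratio of osteo-primed-like over CAR-like cells was -4.85 (-6.12 to -3.95) in the immobilized and -2.99 (-3.78 to -2.36) in the control pool. Few cells carried it. A UMI was found in 15.8% and 12.2% of CAR-like cells, and the 5 cells with most held 35.3% and 35.8% of its UMIs. Kcnb2, a delayed rectifier, was at 32.3 and 44.4 CPM in osteo-primed-like cells, with 55.0% and 69.6% of its UMIs in 5 cells. In CAR-like cells it had 15 UMIs in the immobilized pool and none in the control pool, where osteo-primed-like cells were thus at least 33.3-fold higher, taking 3 counts as the floor.

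Among the auxiliary subunits, Kcne4, which inhibits several voltage-gated pores including Kcnq1, was nearly confined to CAR-like cells within the 3 classes. Osteo-primed-like cells held 3 Kcne4 UMIs in the immobilized pool and none in the control pool, where CAR-like cells were at least 28.5-fold higher. Osteoblast-like cells held none and 1.5, so CAR-like cells of the immobilized pool were at least 194-fold higher. Kcne4 also had 58.4 and 58.3 CPM in pericyte- or smooth muscle-like cells, on 2.5 and 15.5 UMIs. Kcnip3, a calcium sensor that binds Kcnd pores and also acts as a transcriptional repressor, had 125 and 123 CPM in CAR-like, 22.1 and 15.1 CPM in osteo-primed-like and 4.27 and 3.30 CPM in osteoblast-like cells. The Kcnd pores themselves, Kcnd1, Kcnd2 and Kcnd3, had between 0.444 and 6.77 CPM in CAR-like cells and none reached the count minimum. Kcnab1, a subunit that speeds the closing of voltage-gated pores, had 92.9 and 134 CPM in CAR-like, 11.9 and 15.4 CPM in osteo-primed-like and 26.9 and 23.3 CPM in osteoblast-like cells.

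Inward rectifiers were scarce in all 3 classes. Kcnj15 had 23.2 and 20.6 CPM in osteo-primed-like cells, where the Mmp9 cluster had 34.5 and 33.7 CPM and the Hs3st5 cluster 10.2 and 5.52 CPM. CAR-like cells held 1 and 0 Kcnj15 UMIs, and osteoblast-like cells 0.5 and 0. Kcnj8, whose product forms the vascular ATP-sensitive channel with Abcc9, was at 630 and 45.2 CPM in pericyte- or smooth muscle-like cells, on 27 and 12 UMIs in 8 and 57 cells. Abcc9 had 829 and 216 CPM in the same cells. With 8 cells in the immobilized pool that class was not compared.

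The 2 members outside the channel classes were found in all 3 cell classes. Kcnq1ot1, the imprinted antisense RNA of the Kcnq1 locus, had 85.2 and 99.4 CPM in CAR-like, 124 and 149 CPM in osteo-primed-like and 124 and 98.9 CPM in osteoblast-like cells, and 767 and 524 CPM in erythroid-like cells. It overlaps Kcnq1 on the opposite strand. Whether counting used strand is not known here, so their reads cannot be told apart. In all, 24 members have another listed gene over them. Kcnrg, which hinders assembly of voltage-gated channels and overlaps Dleu2, had 15.2 and 26.7 CPM in osteo-primed-like, 11.3 and 10.3 CPM in osteoblast-like and 3.69 and 9.10 CPM in CAR-like cells.

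Of the 23 members below the count minimum in all 3 classes, 7 had their largest share of UMIs in CAR-like cells. For 6 it lay in osteoblast-like and for 5 in osteo-primed-like cells. Kcnh2, the hERG pore, had 90.4% of its UMIs in osteoblast-like cells (10.1 and 8.45 CPM), as the mean of both pools' shares. Kcnc2, a pore of fast-firing neurons, had 6.77 and 18.0 CPM in CAR-like cells and no UMI in osteo-primed-like or osteoblast-like cells, where the upper 95% bounds were 1.60 and 2.37 CPM and 0.927 and 0.717 CPM. Kcns3, a silent subunit that opens no pore by itself, had 14.8 and 21.1 CPM in CAR-like cells. Kcna4, an A-type pore, had 5.64 and 14.5 CPM in osteo-primed-like cells. Outside the stroma, Kcnq5 was found in 43.3% and 38.2% of B lineage-like cells (15 and 17 cells, 928 and 769 CPM). Kcnn4, the calcium-activated channel of red cells, had 80.1% of its UMIs in erythroid-like cells, as the mean of both pools' shares. Kcnq1 had 62.7% of its UMIs in endothelial-like cells by the same mean, on 18.5 and 10.5 UMIs in all kept cells.

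Immobilized and control pools were then set against each other within each class. In CAR-like cells, 3 of 9 members compared were past 2-fold higher in the immobilized pool (Kcnh1, Kcne4, Kcnip4) and none lower. Over all 7131 genes compared, 1.15% were past 2-fold higher and 0.883% lower. The median log2 ratio of the 9 members was 0.14, against -0.00 over all genes compared. In osteo-primed-like cells none of 10 members passed 2-fold in either direction, beside 0.76% of 6843 genes higher and 0.643% lower. In osteoblast-like cells none of 11 members did, beside 2.58% of 7958 genes higher and 0.754% lower. Kcnh1 was known from earlier results of these data to differ by group, so its values are a description.

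Kcnh1, a voltage-gated pore of the ether-a-go-go family found mainly in brain and in proliferating cells, had the largest ratio of the compared members. In CAR-like cells the lanes held 232 and 246 Kcnh1 UMIs in the immobilized pool and 54 and 73 in the control pool. Both lanes of the immobilized pool were above both of the control pool, which sets the pools against sequencing noise alone. Its level was 147 CPM (129 to 167) in the immobilized and 28.2 CPM (21.7 to 36.0) in the control pool, a log2 ratio of 2.37 (1.98 to 2.81). A UMI was found in 34.7% of CAR-like cells of the immobilized pool and 9.08% of those of the control pool, and in 20.8% and 5.10% after thinning. No granulocyte-like cell of either pool held a Kcnh1 UMI, and of all haematopoietic-like cells 1.35% and 0% did.

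The cluster led by Lrrn1, Ryr2 and Igfbp3 held 210.5 of the 239 Kcnh1 UMIs in the immobilized pool and 27.5 of the 63.5 in the control pool. There Kcnh1 had 184 and 32.7 CPM, and its log2 ratio was 2.47 (1.92 to 3.13). This cluster held 218 of the 317 CAR-like cells of the immobilized pool and 207 of the 523 of the control pool. The cluster led by Nrg3 and Ptn had 46.4 and 18.3 CPM, and the cluster led by Sparcl1 and Cxcl5 84.2 and 38.5 CPM. Both rested on under 20 Kcnh1 UMIs in each pool. Without the Lrrn1 cluster the log2 ratio was 1.21, and with a stricter cell filter (1000 genes, 5% mitochondrial) 1.33. Within female cells it was 1.67 (0.45 to 2.92) on 14 and 12 UMIs, and within male cells 2.41 (1.93 to 2.96). In osteo-primed-like cells Kcnh1 had 65.1 and 47.3 CPM, a log2 ratio of 0.46 (0.05 to 0.88), and in osteoblast-like cells 3.14 and 1.26 CPM. Set against CAR-like cells, osteo-primed-like cells were thus lower in the immobilized pool, at a log2 ratio of -1.17 (-1.48 to -0.87), and higher in the control pool, at 0.74 (0.24 to 1.25). The immobilized value was 0.07 in female cells and 0.02 with the stricter cell filter. Hhat lies opposite Kcnh1, so their reads may be mixed.

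The promoter window of Kcnh1, the member with the largest ratio, is printed as 250 bases before to 50 after the RefSeq start (GRCm38.p6, chr1:192190527-192190826, plus strand). Capitals mark bases 28 to 33, which match the nuclear receptor motif AGGTCA on the other strand.
Kcnh1: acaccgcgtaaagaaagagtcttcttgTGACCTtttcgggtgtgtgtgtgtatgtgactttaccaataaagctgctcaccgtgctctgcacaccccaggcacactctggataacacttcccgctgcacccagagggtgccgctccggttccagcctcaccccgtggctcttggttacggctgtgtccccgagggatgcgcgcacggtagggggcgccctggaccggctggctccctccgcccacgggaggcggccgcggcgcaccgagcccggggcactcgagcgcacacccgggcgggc
Both strands of such windows were searched for 4 motifs. A member counted when any of its windows matched, while the background is a share of single windows, so these are unlike measures. AGGTCA was in 3 of the 30 members with a RefSeq window (Kcnh1, Kcnip4, Kcnk10) and in 16.3% of 32851 windows. The cAMP response motif TGACG, found in the window of Kcne4, was in 8 members and 20.8% of windows. The RUNX motif TGTGGT was in 3 members (Kcna4, Kcnn4, Kcnt2) and 16.8% of windows. The EBF palindrome was in none of them and in 0.904% of windows. A match describes letters only, and 3' counts do not show which start a cell uses.

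Kcne4 had 248 and 227 UMIs in CAR-like cells in the lanes of the immobilized pool and 125 and 123 in those of the control pool. Its level was 146 CPM (128 to 166) and 55.0 CPM (45.8 to 65.6), a log2 ratio of 1.41 (1.09 to 1.73). A UMI was found in 31.2% and 13.4% of cells, in 18.9% and 8.47% after thinning, and in no haematopoietic-like cell. The level was higher in the immobilized pool in each CAR-like cluster, with 112 and 42.2 CPM in the Lrrn1 cluster and 294 and 80.2 CPM in the Nrg3 cluster. The Sparcl1 cluster had 90.4 and 31.6 CPM, on under 20 Kcne4 UMIs in each pool. Within female cells the log2 ratio was 1.82 (1.36 to 2.29), and within male cells 1.50 (1.02 to 2.03). The antisense gene Gm29536 overlaps Kcne4.

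Kcnip4, a calcium sensor of the same family as Kcnip3, rested on few cells. The lanes of the immobilized pool held 135 and 141 UMIs and those of the control pool 72 and 84, or 84.9 CPM (71.3 to 100) and 34.6 CPM (27.4 to 43.2). The log2 ratio was 1.29 (0.88 to 1.71). Only 9.62% and 6.41% of CAR-like cells held a UMI, and the 5 cells with most held 48.9% and 35.9% of them. The Sparcl1 cluster reached 496 and 127 CPM with 29 and 110 cells, and the Lrrn1 cluster 48.2 and 8.32 CPM. In female cells Kcnip4 had 4.5 and 9.5 UMIs and a log2 ratio of 0.45 (-1.64 to 2.13). The CAR-like ratio was under 2-fold at 0.76 with a Leiden resolution of 2.0, at 0.99 with doublet calls kept, at 0.96 without the Nrg3 cluster and at 0.99 with the cluster led by Fabp4 and Plin1 counted as CAR-like, where Kcnip4 had 225 and 188 CPM. Osteo-primed-like cells had 50.6 and 39.2 CPM, and osteoblast-like cells 8.54 and 2.91 CPM. Pericyte- or smooth muscle-like cells had 11.7 and 122 CPM, on 0.5 and 32.5 Kcnip4 UMIs.

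The other 6 members compared in CAR-like cells stayed within 2-fold. Kcnab1 had a log2 ratio of -0.53 (-0.82 to -0.25), with -0.58 in the Nrg3 cluster and -0.01 in the Lrrn1 cluster, and 0.00 without the Nrg3 cluster. Kcnq3 had 0.14 (-0.15 to 0.42), which joined clusters of opposite sign. In the Lrrn1 cluster, with 120 and 204 CPM, its ratio was -0.76 (-1.10 to -0.43) on the log2 scale. Female cells gave 0.84 (0.19 to 1.46) and male cells -0.15 (-0.50 to 0.18). In the Nrg3 cluster, with 117 and 53.6 CPM, its ratio was 1.13 (0.48 to 1.77) on the log2 scale. In the Fabp4 cluster, counted in no class, it was at 18.6 and 180 CPM on 4 and 48 UMIs. Kcnk2 had -0.09 (-0.42 to 0.24), which joined 0.26 (-0.19 to 0.72) in the Lrrn1 cluster with -1.05 (-1.92 to -0.33) in the Nrg3 cluster, there on 17 and 100.5 UMIs. Female cells gave Kcnk2 a ratio of -0.69 (-1.46 to -0.04) and male cells 0.21 (-0.23 to 0.65). Kcnip3 had 0.02 (-0.25 to 0.28), Kcnt2 0.47 (-0.02 to 0.96) and Kcnq1ot1 -0.22 (-0.54 to 0.09).

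Markers of blood cells moved with the groups in these cells. In CAR-like cells the 7 granulocyte markers summed to 356 CPM in the immobilized and 179 CPM in the control pool, and the 7 erythroid markers to 362 and 173 CPM, with every marker of both lists higher in the immobilized pool. The 12 CAR markers summed to 29440 and 35220 CPM. Kcne4 was at 0 in haematopoietic-like cells of both pools, and Kcnh1 had 1.5 and 0 UMIs there. With the same cluster mix set for both pools, CAR-like log2 ratios were 2.11 for Kcnh1, 1.65 for Kcne4 and 2.0 for Kcnip4. Kcnq3 then had -0.26 and Kcnab1 -0.29. The part of the difference in sex of cells and in cluster mix was not tested beyond these values and those above.

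**Figure D4:**
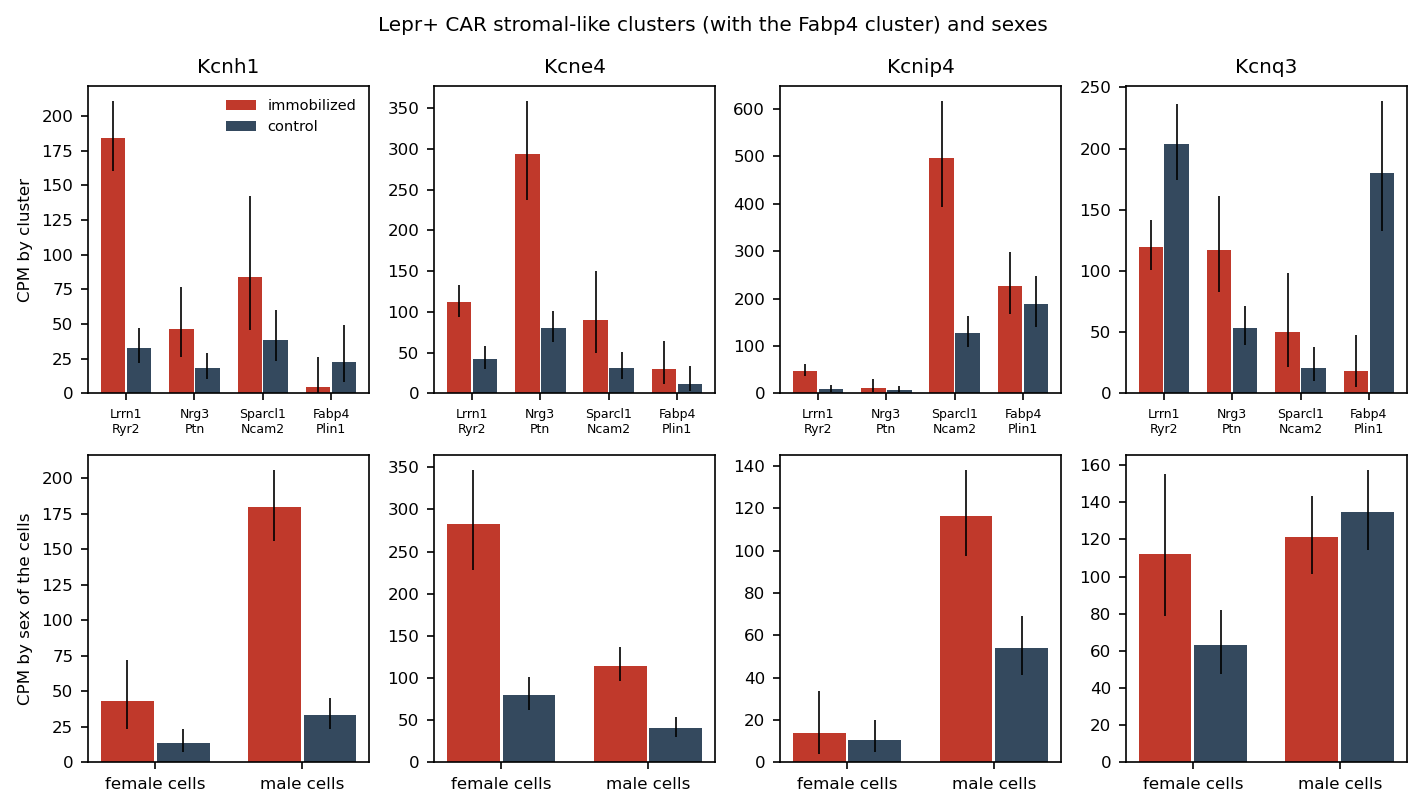
CPM of Kcnh1, Kcne4, Kcnip4 and Kcnq3 in the 3 CAR-like clusters and the Fabp4 cluster (top) and in female and male CAR-like cells (bottom), immobilized in red and control in dark blue. Error bars are exact Poisson 95% intervals. Kcne4 is higher in the immobilized pool in each CAR-like cluster, in the Sparcl1 cluster on under 20 UMIs in each pool. Kcnq3 is lower in the Lrrn1 cluster, at 120 and 204 CPM, and higher in the Nrg3 cluster, at 117 and 53.6 CPM.

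In osteo-primed-like cells the 10 compared members had a median log2 ratio of 0.26, against 0.05 over all genes compared. Kcnma1 had 471 CPM in the immobilized and 305 CPM in the control pool, which gave a log2 ratio of 0.63 (0.47 to 0.79), with 593 and 338 CPM in the Mmp9 cluster and 331 and 268 CPM in the Hs3st5 cluster. Within female cells the Kcnma1 ratio was 0.86 (0.68 to 1.05), and within male cells 0.10 (-0.21 to 0.44). Kcnmb4 had a ratio of 0.63 (0.04 to 1.27), which joined 1.0 (0.23 to 1.9) in the Mmp9 cluster with 0.03 (-0.92 to 1.06) in the Hs3st5 cluster. Female cells gave Kcnmb4 1.07 (0.22 to 2.05) and male cells 0.12 (-0.82 to 1.19), the second on 30 and 13.5 UMIs. Kcnk2 had -0.18 (-0.31 to -0.04), which joined 399 and 606 CPM in female cells with 546 and 373 CPM in male cells. Kcnt2 had -0.05 (-0.24 to 0.14), which joined -0.40 (-0.65 to -0.16) in the Hs3st5 cluster with 0.50 (0.19 to 0.83) in the Mmp9 cluster. Kcnip4 had 0.36 (-0.09 to 0.84), which joined -0.36 (-0.97 to 0.25) in female with 1.59 (0.70 to 2.74) in male cells, the second on 66 and 10.5 UMIs. Kcnb2 had -0.46 (-0.95 to 0.04) and Kcnj15 0.16 (-0.48 to 0.85). Granulocyte markers summed to 252 and 115 CPM in these cells, and their part in these ratios was not tested.

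Across genes with enough counts in both pools, osteoblast-like cells had a median log2 ratio of 0.21, so the values below are relative to that shift. Kcnmb4 stood at 0.58 (0.09 to 1.08) and Kcnt2 at 0.57 (0.40 to 0.74), from 164 and 95.3 CPM. Kcnma1 stood at 0.27 (0.20 to 0.33). Its level was 1182 and 1217 CPM in the cluster led by Car12 and Mamdc2, and 1151 and 767 CPM in the cluster led by Dnah12 and Atf3. Kcnk2 stood at -0.46 (-0.66 to -0.27) and Kcnk1 at -0.28 (-0.45 to -0.11). Kcnk6, Kcnq1ot1, Kcnab1, Kcnn1 and Kcnrg lay between -0.08 and 0.17. Not set against the shift, Kcnk2 had -0.25 (-0.45 to -0.05) and Kcnk1 -0.07 (-0.24 to 0.10). On that scale Kcnmb4 had 0.84 (0.28 to 1.39) in female cells. In male cells it had -0.41 (-1.57 to 1.01), on 23 and 8 UMIs. Kcnt2 had 0.78 (0.59 to 0.97) in female and 0.24 (-0.26 to 0.79) in male cells. The differences between the sexes were not tested. In osteoblast-like cells the 8 osteo-primed markers summed to 1530 and 616 CPM, each higher in the immobilized pool. The 9 osteoblast markers summed to 110100 and 144800 CPM, with 4 of the 9 higher in the immobilized pool. Granulocyte markers, 7 in all, summed to 185 and 74.1 CPM, each higher in the immobilized pool. The 7 chondrocyte markers summed to 637 and 2356 CPM, mostly Col2a1 (599 and 2318 CPM), with 3 of the 7 higher. Osteocyte markers, 6 in all, summed to 871 and 689 CPM, each higher in the immobilized pool. Their part in these ratios was not tested.

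**Figure D5:**
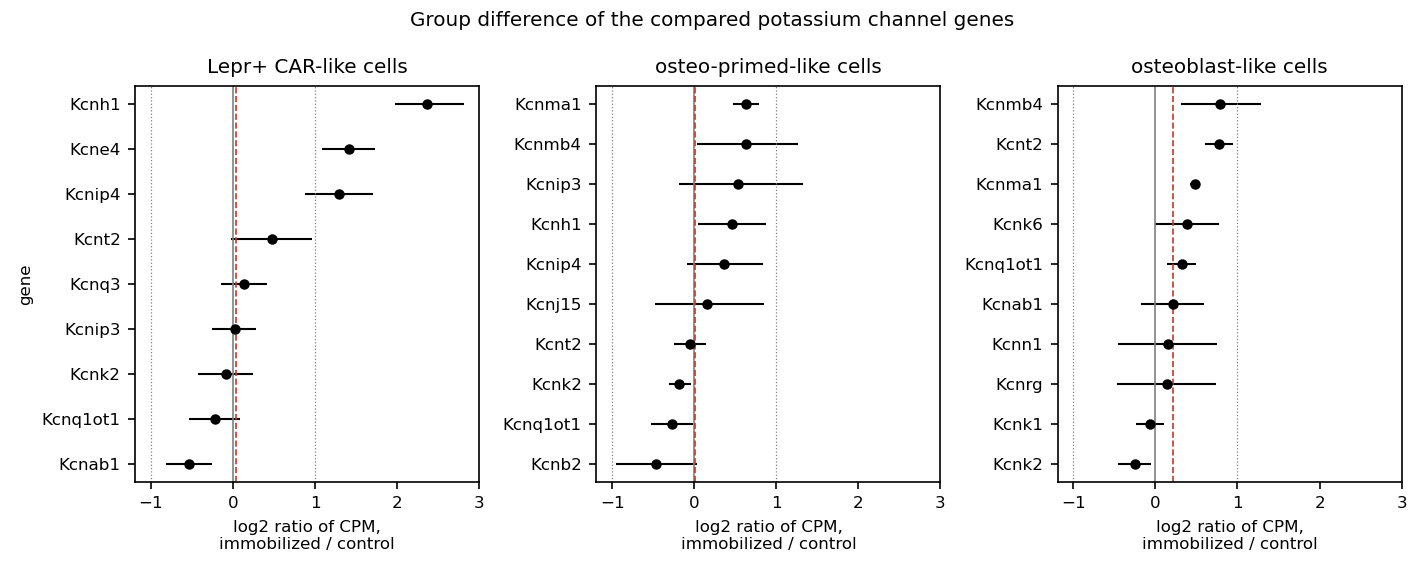
Log2 ratio of CPM, immobilized over control, of compared members in the 3 classes, with exact conditional binomial 95% intervals. Dotted lines mark 2-fold and the red dashed line the median over genes with enough counts in both pools (0.21 in osteoblast-like cells). Only Kcnh1, Kcne4 and Kcnip4 in CAR-like cells lie past 2-fold.

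Genes outside the family that move potassium were taken from a list of 14 pumps and cotransporters. None of those compared passed 2-fold in any of the 3 classes, with 6 compared in CAR-like, 4 in osteo-primed-like and 6 in osteoblast-like cells. Their median log2 ratios of immobilized over control were -0.13, 0.05 and 0.19, beside -0.00, 0.05 and 0.19 over all genes compared.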

How the data were processed

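Raw UMI counts per gene and barcode were deposited as matrices, made with Cell Ranger 7.0.0 on mm10 per the submitters' processing notes. The annotation release and whether intronic or antisense reads were counted are not given in the sources used here. Gene identifiers and cell barcodes came as deposited text tables. Of 32286 identifiers 32158 matched GENCODE vM21 (GRCm38), among them 41 of 41 members, which gave overlaps between genes. Promoter windows are RefSeq's on GRCm38.p6.

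The lanes of a group shared 1747 (immobilized) and 1617 (control) barcodes, their UMIs per barcode correlated at r = 0.9998 and 0.9999 across cells, and the mean chi-square per gene was 0.588 and 0.537, under the value of independent sampling. Lanes were therefore averaged and counted as 1 sample, so UMIs can end in 0.5. Barcodes with at least 500 genes (mean of lanes) and under 10% mitochondrial counts were kept, which left out 126 and 90 barcodes by genes and 300 and 146 by mitochondrial share. Scrublet calls, 9 and 18, were removed. Without Kcn genes, cells were scaled to 10000 counts, log-transformed and clustered together in scanpy 1.11.5 (2000 variable genes, 30 components, 15 neighbours, Leiden resolution 1.0, igraph 0.11.9). A cluster took the name of a marker list when at least 3 markers and 30% of the list were over 2-fold and in 10% of its cells. Rules added after the clusters were seen left cycling clusters, and clusters within 10 percentage points of a second list, unnamed (5.09% of immobilized and 4.96% of control cells). Differences from the study's own cell types may come from these rebuilt names.

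Within a class, UMIs were summed and scaled to counts per 1000000 (CPM). Levels carry exact Poisson, shares exact Clopper-Pearson and ratios exact conditional binomial 95% intervals, which treat UMIs as independent. Log2 ratios used a pseudocount of 0.5 counts. A difference was called past 2-fold among genes that averaged 50 or more UMIs per lane in 1 of the sets. Ratios and intervals were tested on simulated data with known folds. Members reaching that count were described, and the others by counts and examples chosen after their values were seen. Some genes are not reported here. Members and gene lists were chosen with earlier results of these data known. Alternatives were other cell filters, resolutions, scalings, count minimums, cluster mixes, single lanes, sexes and doublets kept. Leaving out clusters, counting the Fabp4 cluster as CAR-like and class ratios by sex were added after the data were seen.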

Additional observations from a re-analysis of the deposited data

Results flagged for a closer look

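Kcnk2 in osteo-primed-like cells moved in opposite directions in the sexes. Its log2 ratio of immobilized over control was -0.60 (-0.77 to -0.44) in female cells, from 399 and 606 CPM, and 0.55 (0.29 to 0.82) in male cells, from 546 and 373 CPM. Kcnb2, the delayed rectifier of the same class, did so too, at -0.71 (-1.27 to -0.17) in female cells and 2.58 (0.46 to 8.51) in male cells, the second on 17.5 and 1 UMIs. Female and male cells of a pool come from different mice, so sex and animal cannot be told apart, and the differences between the sexes were not tested.

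Kcnq1ot1, the antisense RNA of the Kcnq1 locus, had a log2 ratio of -0.27 (-0.52 to -0.01) in osteo-primed-like cells and 0.32 (0.14 to 0.50) in osteoblast-like cells. Relative to the shift of all genes the osteoblast-like value was 0.11 (-0.07 to 0.29). The difference between the classes was not tested.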

How the results depend on the processing

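No paired analysis was possible because each group is 1 pool, and equal replicate numbers name sequencing lanes. Over the alternatives run, Kcnh1 in CAR-like cells kept a log2 ratio between 1.21 and 2.60 and Kcne4 one between 1.18 and 1.85, while Kcnip4 ranged from 0.45 to 2.33, Kcnq3 from -0.28 to 1.19 and Kcnab1 from -0.72 to 0.00. Of 492 group ratios recomputed, 440 kept their sign. With a count minimum of 10, CAR-like cells had 8 of 20 members higher and 2 lower (2.72% and 2.39% of all genes), osteo-primed-like cells 1 and 2 of 23 (3.03% and 1.58%), and osteoblast-like cells 6 of 22 higher (5.53%). Among female cells 1 of 6 members compared was higher in CAR-like cells. Kcnh1 (14 and 12 UMIs) and Kcnip4 (4.5 and 9.5 UMIs) fell under the count minimum of 50 there. In osteo-primed-like cells 1 of 6 was higher among male cells and 1 of 5 without the Hs3st5 cluster. At Leiden resolutions 2.0 and 0.5, 1 of 10 and 1 of 11 were lower there. In osteoblast-like cells 1 of 6 was higher with the stricter filter (1000 genes, 5% mitochondrial). Osteo-primed-like over CAR-like cells, 12 of 26 were higher and 8 lower at the count minimum of 10 (6.58% and 9.73% of all genes). In female cells 2 of 7 were lower. Osteoblast-like over CAR-like cells, 1 of 7 was higher in male cells and 3 of 11 with the stricter filter. At the minimum of 10, 10 of 25 were lower (27.6% of all genes), and 2 of 10 in female cells. Osteoblast-like over osteo-primed-like cells, 7 of 24 were higher at the minimum of 10 (4.51% of all genes). Higher ones were 2 of 10 in female cells, 1 of 4 in male cells and 2 of 6 with the stricter filter. Lower ones were 9 of 24 at the minimum of 10 (17.4%) and 1 of 7 at 100. They were 2 of 10 in female cells, 1 of 4 in male cells and 2 of 6 with the stricter filter. Other minimums and smaller cell sets compare other members, and other causes were not tested. Among these alternatives, shares over all genes are given for the minimum of 10 alone, so the other counts are a description. Osteo-primed-like over CAR-like cells, Kcnh1 in the immobilized pool turned to 0.07 in female cells and 0.02 with the stricter filter. Osteoblast-like over osteo-primed-like cells, Kcnb2 in control male cells turned to 2.48 and Kcnab1 in immobilized male cells to -0.13. Thinning to 2000 UMIs moved 58 of 60 shares. Depth limits the 23 scarce members, and 1 pool per group leaves the spread between mice unmeasured.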
